A study of Mus musculus with 7 samples.

Results

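The genes measured here are 9 genes that make, carry or break down retinoic acid, the active form of vitamin A: Aldh1a1, Aldh1a2, Aldh1a3, Rdh10, Dhrs3, Crabp1, Crabp2, Cyp26b1 and Stra6. They were chosen by symbol, with earlier results of these data known. Of the 9, 8 had a row among the 18468 genes of the deposited table of reads. Aldh1a2 was not analysed here. Of the 8, 5 passed the filter on low reads and were tested, whereas Aldh1a1, Crabp1 and Stra6 did not pass it.

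RNA was sequenced from the mouse embryonic mesenchymal line C3H10T1/2, all cultured alike and kept without serum for 12 h before treatment. The paper states that serum was left out during the treatment as well. Purmorphamine, a small-molecule agonist of Smo, was given at 2 μM for 48 h (n = 4 libraries, replicates 5 to 8), and the controls received the vehicle, 0.02% DMSO, for the same time (n = 3 libraries, replicates 2 to 4). The labels name no transgene or mutation in either group. Whether the libraries came from separate cultures was not stated, so p-values measure the spread between libraries, which may be technical.

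Some cells take up retinol, which circulates bound to a carrier protein, through the receptor STRA6. RDH10 oxidizes retinol to retinaldehyde, DHRS3 reduces retinaldehyde back to retinol, and the ALDH1A enzymes oxidize retinaldehyde irreversibly to retinoic acid. CRABP1 and CRABP2 bind retinoic acid in the cytosol, nuclear receptors of the RAR and RXR families respond to it, and CYP26 enzymes such as CYP26B1 hydroxylate it for removal. In mesenchyme, retinoic acid is known for its influence on limb patterning and on cartilage and bone formation.

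Each library held 14337225 to 14342154 reads, since the authors had resampled them to nearly equal size. Genes were tested by the quasi-likelihood method of edgeR, and p-values were adjusted by the Benjamini-Hochberg procedure over the 12388 genes that passed the filter, and a gene was called at an adjusted p under 0.2, the threshold of the study. The response to purmorphamine was broad, with 62.5% of the genes tested called, 31.4% higher and 31.1% lower. Gli1, a target of Hedgehog signaling and the check that the agonist had acted, rose from 10.0 ± 2.65 reads (SD, n = 3) to 2770.0 ± 295 (SD, n = 4).

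Of the 5 retinoic acid genes tested, 3 were called (60%), close to the share of all genes called, so that the count alone does not set them apart. Cyp26b1 and Dhrs3 fell and Rdh10 rose, while Aldh1a3 and Crabp2 did not pass the test. The median log2 fold change of the 5 was 0.20, against 0.0038 for all genes tested. That median is the value of Crabp2, and it was 0.49 without DMSO replicate 2 and -0.062 without DMSO replicate 3. Both decreases were at least 2-fold, a size of decrease that 3.45% of the genes tested reached. In 3 of the 5 genes the libraries of the groups did not overlap in reads, which held for 49.5% of all genes tested.

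**Figure D1:**
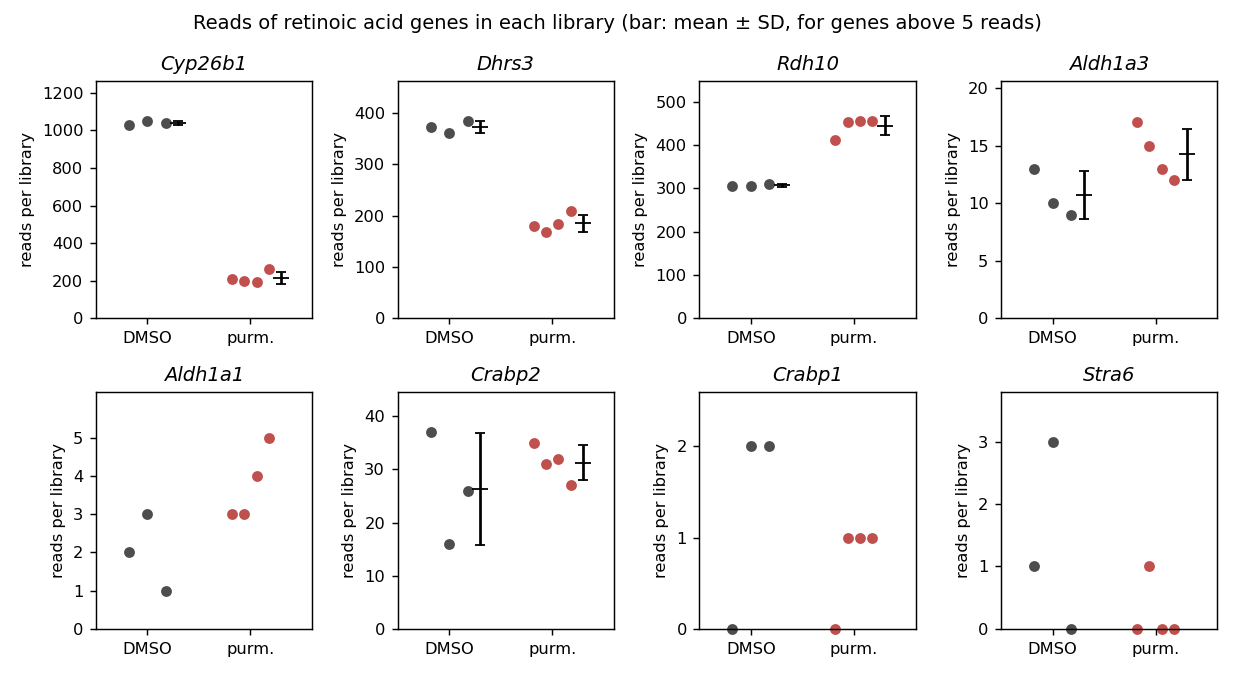
Reads per library (y axis, a separate scale from 0 in each panel) of the 8 genes with a row, in the 3 DMSO libraries (grey points) and the 4 purmorphamine libraries (red points, "purm."), with the mean and SD beside the points for genes above 5 reads. Cyp26b1 and Dhrs3 lie lower in every purmorphamine library and Rdh10 higher, whereas the points of the other genes overlap or touch.

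Cyp26b1, the enzyme that hydroxylates retinoic acid for removal, had the largest change of the 5. The gene (ENSMUSG00000063415) lies on the minus strand of chromosome 6, from 84571414 to 84593908 in GRCm38. It had 1028, 1052 and 1041 reads in the DMSO libraries and 207, 196, 191 and 261 in the purmorphamine libraries. Every purmorphamine library was below every DMSO library, and the highest of the former, replicate 8, was still far from the lowest of the latter. The means were 1040.3 ± 12.0 (SD, n = 3) and 214 ± 32.2 (SD, n = 4), a ratio of 0.205. The log2 fold change was -2.33 (standard error 0.0806, 95% confidence interval -2.5 to -2.16, adjusted p = 4.43e-13 by edgeR's quasi-likelihood test, Benjamini-Hochberg adjusted), a 5.03-fold decrease. The exact permutation test, two-sided, gave p = 0.0286, the smallest that the 35 assignments of 3 and 4 libraries allow. Of the genes tested, 76 (0.613%) had a lower log2 fold change.

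Dhrs3 encodes the enzyme that returns retinaldehyde to retinol and so works against RDH10. The gene (ENSMUSG00000066026) is on the plus strand of chromosome 4, from 144892827 to 144928209. Reads were 372, 361 and 385 with DMSO and 180, 168, 184 and 208 with purmorphamine. The groups were well apart, with the purmorphamine libraries all lower. Means of 373 ± 12.0 (SD, n = 3) and 185.0 ± 16.8 (SD, n = 4) gave a ratio of 0.496. On the log2 scale it fell by 1.06 (standard error 0.0841, 95% confidence interval of the log2 fold change -1.23 to -0.88, adjusted p = 1.75e-08 by edgeR's quasi-likelihood test, Benjamini-Hochberg adjusted), a 2.08-fold decrease, and the exact permutation test, two-sided, again gave p = 0.0286. A lower log2 fold change was found for 400 of the genes tested (3.23%).

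The sequences before the start sites of these 2 genes, the ones that fell, are shown because annotations place transcription starts beside them. They are RefSeq promoter windows of GRCm38.p6, cut to the bases before the first start annotated in RefSeq or GENCODE M21, 152 bases for Cyp26b1 (chr6:84593909-84594060, minus strand) and 250 bases for Dhrs3 (chr4:144892577-144892826, plus strand). The capitals mark the motif TATAAA, and each sequence runs 5′ to 3′ and ends at the base before that start. For Cyp26b1 the annotations disagree, with the first start at 84593908 in GENCODE M21 and the start at 84593810 in RefSeq, 98 bases downstream.
Cyp26b1: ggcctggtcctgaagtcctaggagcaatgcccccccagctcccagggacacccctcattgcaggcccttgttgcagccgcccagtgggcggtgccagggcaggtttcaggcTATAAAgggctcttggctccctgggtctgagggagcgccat
Dhrs3: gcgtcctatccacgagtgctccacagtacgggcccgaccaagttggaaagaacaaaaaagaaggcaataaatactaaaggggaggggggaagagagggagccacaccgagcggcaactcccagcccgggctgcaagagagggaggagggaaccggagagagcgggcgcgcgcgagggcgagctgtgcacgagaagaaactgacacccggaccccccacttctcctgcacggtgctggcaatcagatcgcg

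In the Cyp26b1 window the letters TATAAA, searched on the sense strand, stood from 41 to 36 bases before the GENCODE M21 start and from 139 to 134 bases before the RefSeq start. Of 32851 promoters, 4.89% held them in a window of the same length directly before the RefSeq start. The Cyp26b1 window instead ends 98 bases before its RefSeq start. Those 98 bases were not searched, so its percentages compare unlike regions. The Dhrs3 window did not hold TATAAA (7.59% of promoters at that length did). Neither window held GACCACCCA, a binding motif of the Gli factors, searched on both strands, which 0.122% of promoters held at the length of the Cyp26b1 window and 0.225% at that of Dhrs3. Nor did either hold, on either strand, any of 4 half-sites that retinoic acid receptors can bind. These were AGGTCA (in 8.72% of promoters at the shorter length and 14% at the longer), AGTTCA (in 6.83% and 11.8% of them), GGGTCA (in 7.30% and 11.6% of them) and GGTTCA (in 5.19% and 8.85% of them), and any of the 4 was in 25.1% and 38.6%. No match says only that these letters are absent from these windows. The windows also differ in composition, with 65.1% G and C and 3 CpG in that of Cyp26b1 and 61.6% and 19 CpG in that of Dhrs3, where RefSeq places 3 starts over 310 bases. Windows were found for 6 of the 9 genes, and not for Rdh10, Aldh1a3 or Crabp2.

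Rdh10, the retinol dehydrogenase that makes retinaldehyde, was the 1 gene of the 5 called higher. It (ENSMUSG00000025921) is on the plus strand of chromosome 1, from 16105774 to 16133734. There were 306, 304 and 309 reads with DMSO and 412, 454, 456 and 456 with purmorphamine. All purmorphamine libraries were above all DMSO libraries, and replicate 5 was the lowest of them. The means were 306 ± 2.52 (SD, n = 3) and 444.5 ± 21.7 (SD, n = 4), a ratio of 1.45. The log2 fold change was 0.49 (standard error 0.0698, 95% confidence interval 0.34 to 0.64, adjusted p = 1.97e-05 by edgeR's quasi-likelihood test, Benjamini-Hochberg adjusted), a 1.40-fold increase, with p = 0.0286 in the exact permutation test, two-sided. This was a moderate change among all genes, since 1273 of those tested (10.3%) rose more.

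**Figure D2:**
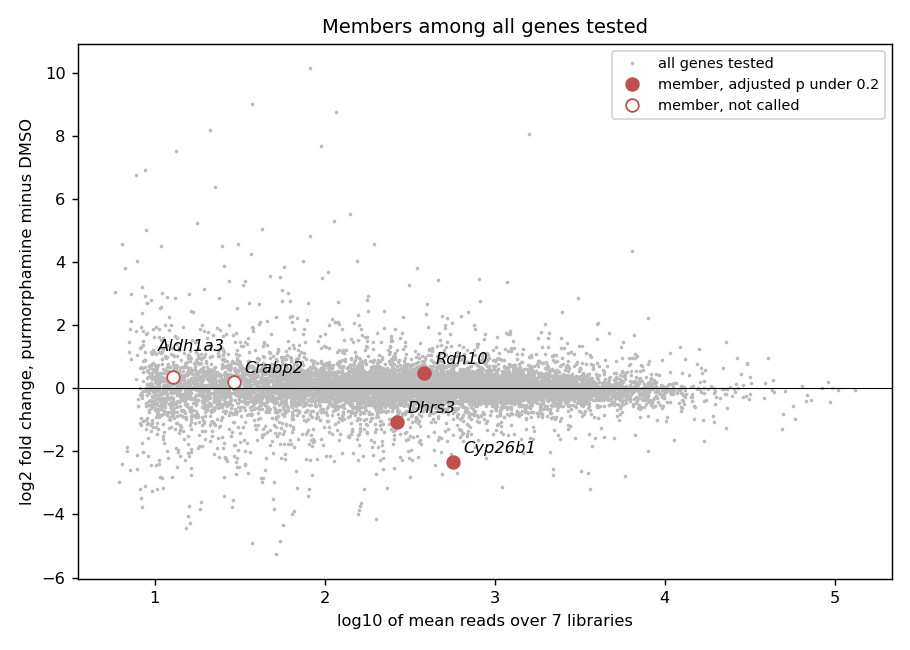
Log2 fold change, purmorphamine minus DMSO (y axis), against the log10 of the mean reads over 7 libraries (x axis) for the 12388 genes tested (grey) and the 5 retinoic acid genes tested (red, filled where the adjusted p was under 0.2). Cyp26b1 at -2.33 is among the lower points at its level of reads, Dhrs3 at -1.06 is below most genes, and Rdh10 at 0.49 is in the upper part of the dense band.

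Of the 3 ALDH1A enzymes that make retinoic acid from retinaldehyde, Aldh1a1 and Aldh1a3 were measured, with few reads, and Aldh1a2 was not. Aldh1a3 (ENSMUSG00000015134) lies on the minus strand of chromosome 7, from 66390890 to 66427517, and had 13, 10 and 9 reads with DMSO and 17, 15, 13 and 12 with purmorphamine. The groups overlapped, and the log2 fold change of 0.37 (standard error 0.289, 95% confidence interval -0.24 to 0.98) had an adjusted p of 0.339 by edgeR's quasi-likelihood test, Benjamini-Hochberg adjusted (p = 0.143 in the exact permutation test, two-sided). Aldh1a1 (ENSMUSG00000053279, chromosome 19 from 20492715 to 20643465, plus strand) had 2, 3 and 1 reads with DMSO and 3, 3, 4 and 5 with purmorphamine. It was not tested, and no fold is given. Its reads could be split with its paralog Aldh1a7, which was not examined further. Aldh1a7 had 6, 6 and 8 reads with DMSO and 6, 2, 6 and 3 with purmorphamine. Reads of Aldh1a1 and Aldh1a3 together came to 10 to 15 per DMSO library and 17 to 20 per purmorphamine library.

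Of the genes for cytosolic binding proteins, Crabp2, whose product hands retinoic acid to its nuclear receptors, was tested and Crabp1 was not. Crabp2 (ENSMUSG00000004885, chromosome 3 from 87948666 to 87953376, plus strand) had 37, 16 and 26 reads with DMSO and 35, 31, 32 and 27 with purmorphamine. The DMSO libraries spanned the whole range of the purmorphamine libraries. Its log2 fold change was 0.20 (standard error 0.245, 95% confidence interval -0.32 to 0.72, adjusted p = 0.536 by edgeR's quasi-likelihood test, Benjamini-Hochberg adjusted), and the exact permutation test, two-sided, gave p = 0.514. A single control library decided the value. Without DMSO replicate 2 it was 0.53 and called (adjusted p = 0.131 by edgeR), and without DMSO replicate 3 it was -0.062 (adjusted p = 0.859 by edgeR). Crabp1, the other cytosolic binding protein (ENSMUSG00000032291, chromosome 9 from 54764748 to 54773110), had 0, 2 and 2 reads with DMSO and 0, 1, 1 and 1 with purmorphamine. Stra6, the retinol uptake receptor (ENSMUSG00000032327, chromosome 9 from 58063788 to 58153996), had 1, 3 and 0 reads with DMSO and 0, 1, 0 and 0 with purmorphamine. Both genes stayed at or under 3 reads in every library, the upper limit that a count of 0 allows for counting error only, and a difference was not detectable at this depth.

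Levels of different genes were compared as reads per kb of exon. With DMSO, Cyp26b1 had the highest level (194 ± 2.24, SD, n = 3), followed by Dhrs3 (127 ± 4.10), Rdh10 (73.6 ± 0.605), Crabp2 (19.9 ± 7.95) and Aldh1a3 (2.31), and from Cyp26b1 to Aldh1a3 no library of a gene overlapped with those of the next. Aldh1a3 and the genes below it, Crabp1, Aldh1a1 and Stra6, overlapped with their neighbours. For scale, the median over the 12103 tested genes with an exon length was 91.5 reads per kb with DMSO. With purmorphamine the order was different, with Rdh10 first (107 ± 5.21, SD, n = 4), then Dhrs3 (63.2 ± 5.73), Cyp26b1 (39.9 ± 6.02), Crabp2 (23.6 ± 2.5) and Aldh1a3 (3.09), again with no overlap between neighbours. Crabp1 and Aldh1a1 overlapped there. In reads not divided by length, Cyp26b1 (mean 214) stayed above Dhrs3 (mean 185) with purmorphamine. The order of these 2 genes there thus rests on the exon lengths from GENCODE M21, which may differ from the exons counted.

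**Figure D3:**
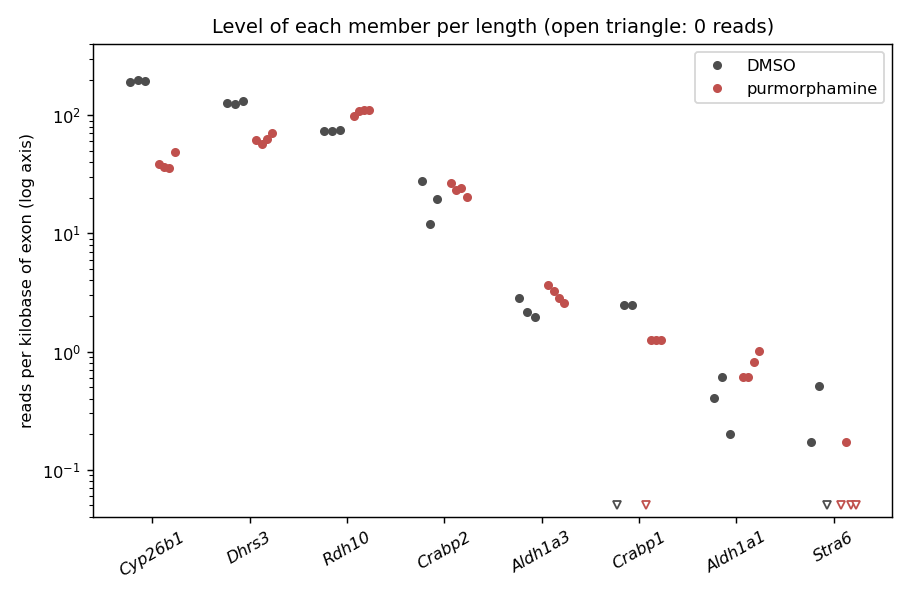
Reads per kb of exon (y axis, log scale) of the 8 genes in each DMSO library (grey) and each purmorphamine library (red), with open triangles for libraries with 0 reads. Cyp26b1 goes from the highest level, 194, to the third, 39.9, and Rdh10 from the third, 73.6, to the highest, 107.

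The balance of the 2 opposing enzymes within each library was then described. Per kb, the ratio of Rdh10 to Dhrs3 was 0.579, 0.593 and 0.565 in the DMSO libraries and 1.61, 1.90, 1.74 and 1.54 in the purmorphamine libraries. Dhrs3 was thus the higher of the pair in every DMSO library and Rdh10 in every purmorphamine library. The ratio of Cyp26b1 to Rdh10 per kb went from 2.61, 2.69 and 2.62 to 0.391, 0.336, 0.326 and 0.445. Cyp26b1 alone held 58.4% to 60.1% of the reads of all 8 genes with DMSO and 21.7% to 26.9% with purmorphamine, as those reads went from 1751 to 1773 per library to between 854 and 970. These ratios restate the changes of the single genes and were not tested. In bulk RNA, fewer cells that express a gene and less RNA per cell cannot be told apart.

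The other genes of the pathway were taken from a list of 45, of which 38 had a row and 27 were tested. Of these 27, 8 were called higher, 6 lower and 13 did not pass the test, so that 51.9% were called against 62.5% of all genes tested. Their median log2 fold change was 0.031, and for 12 of the 27 the groups did not overlap in reads, against 49.5% of all genes tested. The 6 called lower became 3 without DMSO replicate 3. Each adjusted p for these genes is from the same edgeR fit of all genes.

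Among the 15 listed enzymes that oxidize or reduce retinol and retinaldehyde, 11 were tested, of which 4 were higher, 2 lower and 5 not called. That is 54.5% called, against 62.5% of all genes tested. Adh7, an alcohol dehydrogenase able to oxidize retinol, had 751, 734 and 626 reads with DMSO and 1593, 1672, 1659 and 1639 with purmorphamine, without overlap (log2 fold change 1.17, standard error 0.0596, adjusted p = 5.43e-11 by edgeR). Aox1, an aldehyde oxidase that can act on retinaldehyde, rose from 63, 71 and 69 reads to 132, 175, 202 and 142 (log2 fold change 1.22, standard error 0.155, adjusted p = 5.65e-06 by edgeR). Adh1, a further alcohol dehydrogenase, rose less, from 62 to 67 reads with DMSO to 83 to 95 with purmorphamine (0.46, adjusted p = 0.00702 by edgeR). In the other direction, Dhrs9, a short-chain dehydrogenase able to oxidize retinol, fell from 175, 174 and 178 reads to 83, 92, 76 and 109 (log2 fold change -1.01, standard error 0.117, adjusted p = 1.88e-06 by edgeR). The enzymes listed thus moved in both directions, as did all genes tested (31.4% called higher and 31.1% lower). Rdh14 (log2 fold change 0.13, adjusted p = 0.167 by edgeR) and Dhrs4 (-0.13, adjusted p = 0.185 by edgeR) were called with small changes, and lost their call in 7 and 11 of 15 alternative settings. Rdh11, Rdh13, Adh5, Rdh12 and Rdh5 did not pass the test, with log2 fold changes of 0.03, 0.04, -0.08, 0.32 and -0.11, and Rdh5 shares exon sequence on its strand with Bloc1s1, whose reads could be counted with it.

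Genes of retinoid supply and storage were mostly at or near 0. Of 10 listed, 8 had a row and 2 were tested. Rpe65, the retinoid isomerase known from the eye, had 49, 59 and 39 reads with DMSO and 24, 13, 19 and 19 with purmorphamine (log2 fold change -1.43, standard error 0.222, adjusted p = 4.87e-05 by edgeR), with no overlap between the groups. Dgat1, which can esterify retinol as well as making triglyceride, was called at -0.16 (adjusted p = 0.144 by edgeR), with overlapping groups, and lost its call in 7 of 15 alternative settings. Lrat, the main retinol-esterifying enzyme, had no more than 1 read in any library, and Rbp4, the carrier of retinol in blood, no more than 2.

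Of the 3 other genes of binding and breakdown, Fabp5, a fatty acid binding protein that also binds retinoic acid, rose from 155, 157 and 165 reads to 293, 299, 184 and 255 (log2 fold change 0.65, standard error 0.135, adjusted p = 0.000796 by edgeR). Cyp26a1, the paralog of Cyp26b1 that is strongly induced by retinoic acid in many cells, had 0 reads in every DMSO library and 0, 0, 1 and 0 with purmorphamine. Cyp26c1 was not analysed here.

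Of the 4 receptor genes tested, 2 rose and 2 did not pass the test (50% called, against 62.5% of all genes tested). Rxra had 1093, 1202 and 1235 reads with DMSO and 1694, 1785, 1504 and 1679 with purmorphamine (log2 fold change 0.45, standard error 0.0597, adjusted p = 8.25e-06 by edgeR), and Rara went from 536, 528 and 544 reads to 742, 875, 639 and 636 (0.38, standard error 0.0910, adjusted p = 0.00228 by edgeR). In both, the groups were apart. Rarg, the RAR gene with the highest level per kb of exon with DMSO (338, against 123 for Rara), had 1442 ± 45.0 reads (SD, n = 3) with DMSO and 1437.5 ± 60.8 (SD, n = 4) with purmorphamine, and the log2 fold change of Rxrb was -0.02, or 0.03 with library totals alone. Rarb, itself a target of retinoic acid, had 2, 3 and 1 reads with DMSO and 1, 1, 2 and 0 with purmorphamine.

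Most of the tested genes known to respond to retinoic acid did not pass the test, and those called went in both directions. Of 11 listed, 9 were tested, of which 1 was higher, 2 were lower and 6 did not pass the test (33.3% called, against 62.5% of all genes tested), with a median log2 fold change of -0.0018. Rarres2, which encodes the secreted protein chemerin, went from 62, 60 and 71 reads to 140, 157, 83 and 93 (log2 fold change 0.83, standard error 0.20, adjusted p = 0.00257 by edgeR). Rarres1 went the other way, from 22, 25 and 21 reads to 14, 16, 10 and 7 (-0.99, standard error 0.276, adjusted p = 0.00746 by edgeR). In both, the groups did not overlap. Nr2f1, a nuclear receptor, was called at -0.11 (adjusted p = 0.0748 by edgeR) with overlapping groups, and lost its call in 4 of 15 settings. Meis1, Meis2, Nrip1 and Nr2f2 did not pass the test, with log2 fold changes of 0.06, -0.08, 0.10 and 0.06.

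**Figure D4:**
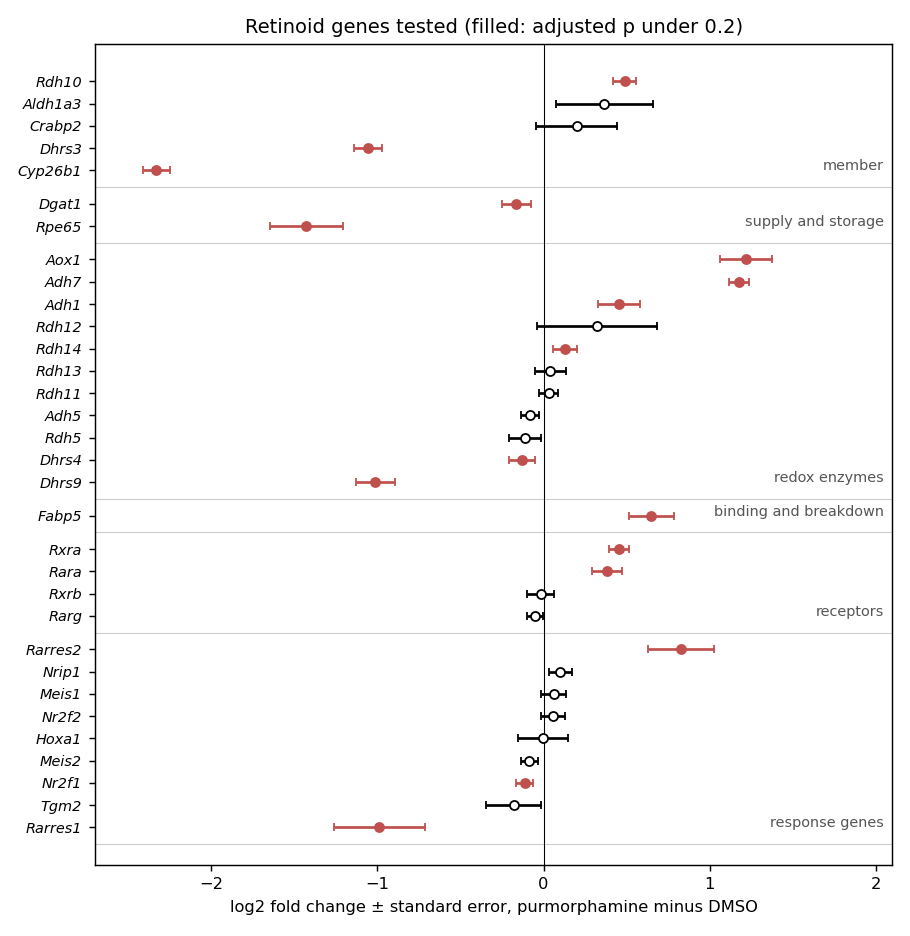
Log2 fold change, purmorphamine minus DMSO, with its standard error (x axis), for the 5 retinoic acid genes ("member") and the 27 other retinoid genes tested, grouped by role. Filled red points had an adjusted p under 0.2, and in the group of redox enzymes they range from Dhrs9 at -1.01 to Aox1 at 1.22.

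Markers of the labelled cell type and of others were summed per library. The 10 mesenchymal markers were all present (281824 to 288421 reads with DMSO and 261282 to 280629 with purmorphamine). Of these 10, 6 were called higher and 2 lower, against 31.4% and 31.1% of all genes tested. The 2 lower were Vim (mean reads 80155 with DMSO and 42480 with purmorphamine) and Col1a2 (73327 and 64660). Of the 6 higher, Twist2 changed most (log2 fold change 2.11). The 3 of 5 epithelial markers with a row went from 14 to 23 reads to 111 to 136, through Cdh1, with Krt8 and Krt14 at 5 reads or fewer. The 4 endothelial markers went from 779 to 820 reads to 1898 to 2154, mostly Tek, and Cdh5 from 0 reads in every DMSO library to 21, 26, 22 and 24 with purmorphamine, with Pecam1 and Kdr at 5 reads or fewer. The 2 of 5 adipocyte markers with a row went from 47 to 65 reads to 19 to 28, and the 4 blood markers from 54 to 57 to 55 to 75, with Ptprc and Itgam at 5 reads or fewer. The part of these shifts in the changes of Cyp26b1, Dhrs3 and Rdh10 was not tested.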

How the data were processed

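RNA was depleted of ribosomal RNA and sequenced from stranded libraries. The authors resampled the reads to equal library size and deposited counts of sense-strand reads per gene, as whole numbers. STAR 2.5.3a and the build mm9 are named in the submitters' processing notes. All 7 columns were matched to libraries by their labels.

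Counts were tested with edgeR 4.0.16 in R 4.3.3 (TMM factors, the default filter with a minimum of 10 counts and a total of 15, quasi-likelihood test, no covariates), with Benjamini-Hochberg adjustment over all 12388 genes tested. Exact permutation tests compared mean log2 TMM-scaled counts with 1 added. No pair of libraries was a duplicate: the mean chi-square per gene was 2.12 to 8.36 within groups and 45.9 to 59.1 between them. The calculations were tested on counts simulated with 200 of the 12388 genes changed. Calls recovered 85.9% of the 1.5-fold and 97% of the 2-fold changes, and 19.8% of the calls were false. In the data 62.5% of the genes tested were called, a far larger share than the simulation changed. These figures therefore need not hold for the data. Alternatives tried were DESeq2 1.42.0, limma-voom (limma 3.58.1), other scaling, other filters, stricter thresholds and each library left out. Positions and exon lengths were from GENCODE M21 (GRCm38), matched by Ensembl identifier for 17632 genes (95.5%), and the coordinates in the table were not used.

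The genes, gene lists and marker lists were chosen with earlier results of these data known. Besides the 9 genes, those named are up to 4 called genes with the largest change in each list, any listed gene with a mean of at least 200 reads, and Gli1. Others, such as Aldh1a7, Rdh5, Rdh12, Lrat, Rbp4, Cyp26a1, Rarb and the marker genes, were named after their values were seen. A further marker list and a listed gene are not reported here.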

Additional observations from a re-analysis of the deposited data

Results flagged for a closer look

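For 32 retinoid genes tested, the 4 purmorphamine libraries were examined for 1 that stood apart, by the gap to its nearest neighbour as a share of the whole range of TMM-scaled reads (Dixon's test at the 95% level). Rdh10 passed with a share of 0.839, since purmorphamine replicate 5 was lower than the others. Rdh14 passed with 0.858, since purmorphamine replicate 7 was higher than the others. Chance gives about 1 in 20 such results, or 1.6 among 32 genes. Without purmorphamine replicate 5, the log2 fold change of Rdh10 was 0.53.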

How the results depend on the processing

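No paired analysis was possible because libraries of different treatment carried no number in common. Cyp26b1 (-2.43 to -2.28) and Dhrs3 (-1.11 to -1.0) kept their direction and call in all 15 alternatives. Rdh10 (0.48 to 0.54) lost its call at a minimum change of 1.5-fold, which left 0 of the retinoic acid genes called higher, and with each library left out the count was 1 to 2. Of the other retinoid genes, that minimum left 4 higher and 3 lower, and over all genes 977 and 936. The 6 other retinoid genes called lower became 3 with library totals alone and 3 at an adjusted p under 0.05, and 3 to 7 with each library left out. With library totals alone 75.0% of their calls were higher, against 57.1%, and the median log2 fold change of all genes tested was 0.051, against 0.0038. Values that changed sign, none of them called with all libraries, were those of Crabp2 (-0.062 to 0.53 with each library left out), Rdh13 (-0.039 to 0.095), Nr2f2 (-0.00072 to 0.11) and Rxrb (-0.080 to 0.041, and 0.031 with library totals alone). The median of the retinoic acid genes tested was -0.43 with at least 10 counts in every library, a filter that Aldh1a3 did not pass and the other 4 did. For the changes of sign the cause was not tested. Aldh1a3 and Rarres1 had no value with at least 10 counts in every library. Depth limited Aldh1a1, Crabp1 and Stra6, for which no fold could be given.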
